A study of Caenorhabditis elegans with 15 samples.

Results

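The comparison described here concerns young adult *fbxa-215(syb4404)* mutants of *C. elegans* (strain SX3678) grown at 25 °C against mutants of the same strain grown at 20 °C. It takes 7 of the 15 young adult mRNA libraries, 3 from 25 °C and 4 from 20 °C, chosen by strain from the sample labels with no use of measured values. The mutants carry a deletion of the whole coding sequence of *fbxa-215*, an F-box gene with a helix-turn-helix domain of transposon origin, in a strain backcrossed to N2, the standard wild-type strain. Mutants at 20 °C were collected 48 h after hatched larvae were placed on plates and mutants at 25 °C after about 36 h, so that the temperature, the hours on the plate and the round of culture cannot be told apart. N2 animals were treated in the same way (4 libraries at 20 °C and 4 at 25 °C) and are used below only to show where the mutants differ. Each library holds polyadenylated RNA of whole animals, so a difference can come from fewer cells of a type or from less RNA per cell, which cannot be told apart. The labels do not say whether libraries came from separate cultures, and the tests measure the spread between these libraries.

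F-box proteins act as the substrate receptors of SCF ubiquitin ligases, in which a Skp1-related adaptor joins them to a cullin, and tagged substrates are degraded by the proteasome. Upon acute heat, the transcription factor HSF-1 switches on small heat shock proteins and inducible HSP70 chaperones, while other chaperones are made at all temperatures. *C. elegans* is routinely cultured at either temperature compared here, the warmer one being close to the upper end of its fertile range, and it also adjusts the saturation of its membrane lipids to temperature.

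The mutated gene was at 2 counts in replicate 2 at 20 °C and at 0 in each of the other 6 mutant libraries, against 122 to 167 CPM in N2 (counts scaled to library size, with TMM factors). The gene (WBGene00012879) spans positions 13665364 to 13666909 of chromosome IV in WBcel235, with 5 annotated exons on the minus strand. Total counts were 12758069, 13244552, 13377243 and 28391866 at 20 °C and 11112365, 12363617 and 11605770 at 25 °C, so that 3 counts, taken as the detection floor, stood for 0.104 to 0.263 CPM (counting error only). Markers of adult tissues were abundant in every mutant library. The adult collagen *col-19* ranged from 1523 to 2828 CPM, the oocyte yolk receptor *rme-2* from 310 to 486 CPM and the body wall muscle myosin *unc-54* from 2484 to 3711 CPM. Of 47 early embryonic genes 10 had no count in any mutant library, among them *pes-10* and *end-1*. The list summed to 66.2 to 85.4 CPM at 20 °C and to 91.8 to 116 CPM at 25 °C, with no overlap. In N2 the sums were 52.7 to 64.9 CPM at 20 °C and 74.5 to 83.1 CPM at 25 °C. Only 6 of the 47 were tested, with a median log2 fold change of 0.44, while it was -0.16 over the 37 with at least 1 count. The part of the difference in the summed level in the results below was not tested. Of 20 moulting genes, 2 were higher at an FDR of 0.05 and none lower, against 10.5% and 11.1% of all genes. Of the 20, 15 had a log2 fold change above 0, and *mlt-8* rose past both thresholds. The moulting protease *nas-37* lay between 28.7 and 33.5 CPM at both temperatures. Replicate 4 at 20 °C and replicate 1 at 25 °C stood apart from the other libraries of their temperature. On the first principal component, with 54% of the variance, replicate 4 at 20 °C lay at -1.75, between the other 20 °C libraries (-24.9 to -20.5) and the 25 °C libraries (11.5 to 31.5), of which replicate 1 was the lowest.

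**Figure D1:**
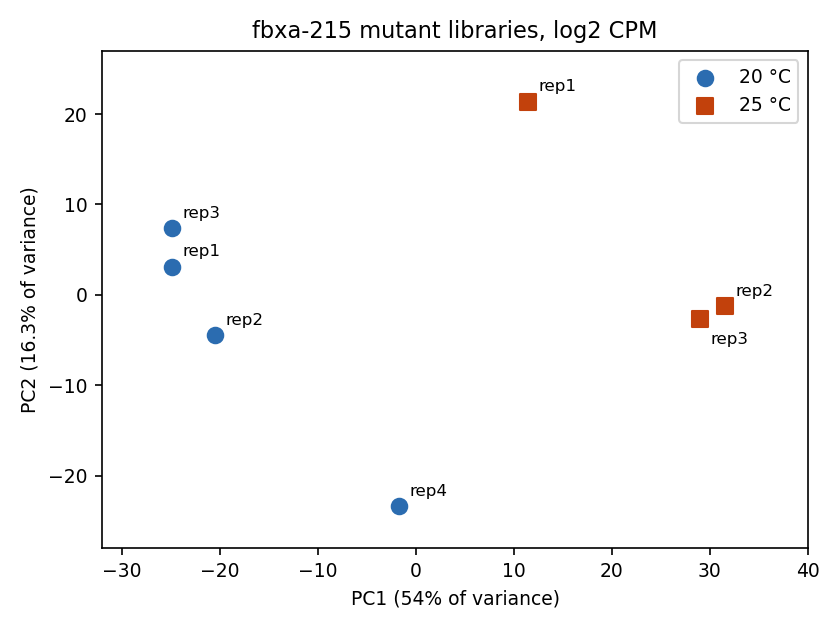
Principal components of log2 CPM over the 7 mutant libraries, with the first component (54% of the variance) on the x axis and the second (16.3%) on the y axis. Circles are libraries from 20 °C and squares libraries from 25 °C, and replicate 4 at 20 °C and replicate 1 at 25 °C lie apart from the others of their temperature on both components.

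Of 13560 genes tested in the mutants, 364 (2.68%) passed an FDR of 0.05 and a fold change of 2 with edgeR's quasi-likelihood test, 294 of them higher at 25 °C (2.17%) and 70 lower (0.516%). The largest differences that were well covered were a rise of the uncharacterized gene *C08E3.13* and a fall of the inducible chaperone gene *hsp-70*. Most differences were smaller than 2-fold: 2922 genes (21.5%) passed the FDR alone, 1419 higher (10.5%) and 1503 lower (11.1%), and the median size of their log2 fold changes was 0.50. The balance between these directions depends on the scaling, since library size alone, without TMM factors, gave 1846 higher and 895 lower. The libraries of the temperatures did not overlap for 357 of the 364 genes past both thresholds and for 32.3% of all genes tested. Called genes were spread unevenly over the genome, from 1.1% of the genes tested on chromosome III and 1.45% on I to 4.35% on V. Of the 364 genes, 331 are annotated as protein-coding and 33 as pseudogenes, and 101 overlap another annotated gene, whose reads cannot be separated by strand in these unstranded libraries. The number of genes past both thresholds was 521 without replicate 4 at 20 °C, 246 without replicate 2 at 25 °C, and 838 (479 higher and 359 lower) without both libraries that stood apart.

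The inducible heat shock genes were lower in mutants grown at 25 °C than at 20 °C. Of 7 members tested, 5 fell past both thresholds and none rose, against 0.516% of all genes that fell, and the median log2 fold change over the 7 was -2.1, against 0.01 over all genes. *hsp-70* (WBGene00002026, chromosome I from 9320325 to 9322519), an inducible cytosolic HSP70, was at 24.5, 19.3, 18.3 and 24.8 CPM in the libraries from 20 °C and at 2.02, 1.39 and 1.93 CPM in those from 25 °C. Every library from 20 °C was thus far above every library from 25 °C, replicate 4 included. The difference was -3.61 on the log2 scale (SE 0.196, FDR 7.66e-06, edgeR), and an antisense gene overlaps the locus. The small heat shock proteins encoded by the *hsp-16* genes hold unfolded proteins in solution. *hsp-16.1* was at 22.8 to 43.8 CPM at 20 °C and 6.73 to 8.99 CPM at 25 °C (log2 fold change -2.1, SE 0.219, FDR 0.000438). *hsp-16.48* fell from 18.3 ± 2.22 CPM (SD, n = 4) to 3.83 ± 1.05 (n = 3), with an edgeR FDR of 0.000113 (log2 fold change -2.26, SE 0.193). No library from 25 °C reached the level of any library from 20 °C for either gene. The less abundant *hsp-16.2* and *hsp-16.41* fell by 1.92 and 1.15 (FDR 0.00124 and 0.00682), the second by 0.95, short of the fold threshold, when both libraries that stood apart were left out. *hsp-16.1*, *hsp-16.48*, *hsp-16.2* and *hsp-16.41* all lie on chromosome V in pairs of neighbours. Whether the quantification split reads between similar genes was not checked, as no sequences were compared. A second identifier with the name *hsp-16.1* (WBGene00002015) was listed at 0 in all mutant libraries.

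The remaining members are the neighbouring HSP70 genes *F44E5.4* and *F44E5.5*, between which reads were divided differently from library to library: *F44E5.4* was at 0 CPM in replicate 1 at 25 °C and *F44E5.5* at 0 CPM in replicates 2 and 3. Summed, they were at 75.9, 81.0, 36.4 and 120.2 CPM at 20 °C and 11.3, 10.4 and 13.9 CPM at 25 °C, a log2 fold change of -2.73 (SE 0.434, FDR 0.0086), in a comparison added after the values were seen. The summed level of the whole list was 103 to 218 CPM at 20 °C and 25.1 to 31.4 CPM at 25 °C. In contrast, *hsf-1*, which encodes the heat shock factor, was at 60.1 to 64.1 CPM at 20 °C and 44.6 to 59.0 CPM at 25 °C and did not pass the test (log2 fold change -0.25, SE 0.0942, FDR 0.0817). Among 7 further small heat shock genes tested, outside the *hsp-16* group, none passed both thresholds, and their log2 fold changes ran from -0.36 to 0.32.

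**Figure D2:**
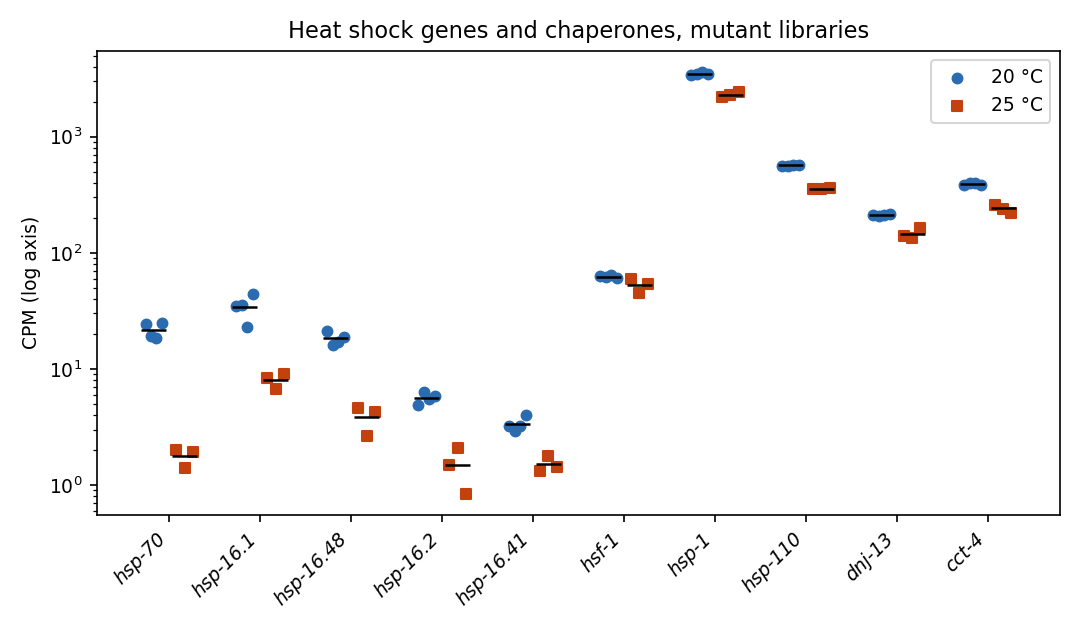
Level of heat shock and chaperone genes in each mutant library, as CPM on a log axis. Blue circles are the 4 libraries from 20 °C, orange squares the 3 from 25 °C and black bars the group means. The libraries of the temperatures do not overlap for any of these genes, and *hsp-70* shows the widest gap.

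Chaperones that are made at all temperatures were also lower, by smaller amounts. Of 54 tested, 23 fell and 4 rose at an FDR of 0.05, against 11.1% and 10.5% of all genes, with no member past the fold threshold and a median log2 fold change of -0.28. The falls were 19 to 27 when 1 library was left out. The rises were 1 or 2 without replicate 1, 2 or 3 at 20 °C or without replicate 2 or 3 at 25 °C. The genes that follow were chosen after their values were seen. *hsp-1*, the constitutive cytosolic HSP70, fell from 3496 ± 85.4 CPM (SD, n = 4) to 2299 ± 105 (n = 3), with an edgeR FDR of 0.000438 (log2 fold change -0.60, SE 0.0677). *hsp-110*, a nucleotide exchange factor for HSP70, fell from 565 ± 5.71 CPM (SD, n = 4) to 356 ± 2.91 (n = 3), which is -0.67 on the log2 scale with an edgeR FDR of 0.00014. All 8 subunits tested of the CCT chaperonin, which folds actin and tubulin, fell at an FDR of 0.05, from -0.43 on the log2 scale to -0.70 for *cct-4* (FDR 0.000274). The DnaJ co-chaperone *dnj-13* was at 212 ± 2.77 CPM at 20 °C (SD, n = 4) and 145 ± 15.5 at 25 °C (n = 3). It fell by 0.54, less than in N2, where it fell by 0.99, with an FDR of 0.0282 for the difference between the strains (edgeR interaction test) that stayed under 0.05 in 13 of 21 alternatives.

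Proteasome subunit genes were lower as a group. All 33 had a log2 fold change below 0, 21 of them at an FDR of 0.05, against 11.1% of all genes, and the median was -0.32. The 21 were 14 without replicate 2 at 25 °C, and 15 with library size alone, where the median was -0.23. The summed level of the 33 was 7115 to 7335 CPM at 20 °C and 5816 to 5999 CPM at 25 °C, with no overlap. No subunit passed the fold threshold. *rpn-1*, a scaffold of the regulatory particle, fell from 358 ± 17 CPM (SD, n = 4) to 256 ± 9.62 (n = 3) with an edgeR FDR of 0.00113, and *rpt-4*, one of its ATPases, from 217 ± 15.7 to 141 ± 21.4 with an FDR of 0.00274. Both were chosen after their values were seen. The medians were also below 0 for the ribosomal protein genes of mitochondria (-0.33, with 29 of 69 lower at an FDR of 0.05) and of the cytosol (-0.25, with 15 of 81 lower), but these counts moved with single libraries. The first was 6 without replicate 2 and 12 without replicate 3 at 25 °C, and 14 and 15 without replicates 1 and 2 at 20 °C. The second was 1 to 4 without replicate 1, 2 or 3 at 20 °C or without replicate 2 or 3 at 25 °C, 25 without replicate 1 at 25 °C and 35 without replicate 4 at 20 °C.

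The fatty acid desaturases changed in opposite directions. These enzymes place double bonds in fatty acids and so set the saturation of membrane lipids. *fat-7* (WBGene00001399, chromosome V from 7151353 to 7153146), a delta-9 desaturase of stearic acid, was at 28.2, 27.6, 31.2 and 24.1 CPM in the libraries from 20 °C and at 5.79, 6.26 and 6.13 CPM in those from 25 °C. The groups were well separated, with a log2 fold change of -2.19 (SE 0.128, FDR 1.35e-05, edgeR), and leaving out any 1 library gave -2.26 to -2.13. *fat-6*, its close paralog with the same substrate, was 399 to 556 CPM at 20 °C and 775 to 862 CPM at 25 °C, higher by 0.69 (SE 0.106, FDR 0.00198). *fat-5*, the delta-9 desaturase of palmitic acid, was close to the floor at 20 °C, with 2, 3, 8 and 14 counts, and had 40, 44 and 56 counts at 25 °C. Its level rose from 0.378 ± 0.218 CPM (SD, n = 4) to 3.87 ± 0.723 (n = 3), an edgeR log2 fold change of 3.26 (FDR 0.000368), and an antisense gene overlaps it. The delta-12 desaturase *fat-2* was higher by 0.35 (FDR 0.00437). *fat-5*, *fat-6* and *fat-2* were chosen after their values were seen. Over the 22 genes of fatty acid synthesis and desaturation, 7 were higher and 1 lower at an FDR of 0.05, against 10.5% and 11.1% of all genes. Their median was 0.22. The 7 were 5 without replicate 1 or 2 at 20 °C or without replicate 2 or 3 at 25 °C, and 9 without replicate 4 at 20 °C.

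Of 65 fat breakdown genes tested, 3 rose past both thresholds and none fell, against 2.17% and 0.516% of all genes. At an FDR of 0.05, 16 were higher and 7 lower, against 10.5% and 11.1% of all genes, so the 7 are near that share. The 16 were 7 without replicate 2 at 25 °C, and 8 and 9 without replicates 1 and 2 at 20 °C. The 7 were 2 or 3 without replicate 1, 2 or 3 at 20 °C or without replicate 2 or 3 at 25 °C. *lipl-2*, a lysosomal lipase, was at 19.2 to 26.8 CPM at 20 °C and 57.5 to 66.7 CPM at 25 °C (log2 fold change 1.41, SE 0.125, FDR 0.00014). *acs-7*, an acyl-CoA synthetase, rose by 1.25 (FDR 0.000339), and *ech-9*, an enoyl-CoA hydratase family gene, by 1.85 (FDR 0.000657). With 1 fit over all 15 libraries the FDR of *ech-9* was 0.0506, and without replicate 1 at 25 °C there were 5 such genes. The acyltransferase family gene *acl-12* was at 17.1 to 18.0 CPM at 20 °C and 40.5 to 43.3 CPM at 25 °C, a rise of 1.24 with an SE of 0.0847 that was among the 5 with the smallest p-values.

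C-type lectins are a large family of mostly secreted proteins, some of which are tied to defence against bacteria. Of 98 C-type lectin genes tested, out of 237 in the files, 17 rose past both thresholds and 2 fell, against 2.17% and 0.516% of all genes, and the median log2 fold change was 0.42. The 17 were 11 without replicate 3 at 25 °C, and 9 when at least 10 counts in every library were required. *clec-166* was at 5.56, 6.49, 4.64 and 6.43 CPM at 20 °C and 18.3, 17.6 and 17 CPM at 25 °C (log2 fold change 1.60, SE 0.139, FDR 0.000128). *clec-227* rose by 1.44 (FDR 0.0004). *clec-4* rose by 1.59 (FDR 0.000922), although its FDR was 0.0793 with 1 fit over all 15 libraries. The opposite direction was seen for *clec-97*, at 10.4 to 14.2 CPM at 20 °C and 3.95 to 5.35 CPM at 25 °C (-1.39, SE 0.17, FDR 0.000696).

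Among 58 lysozyme, saposin, thaumatin and antimicrobial peptide genes tested, 5 rose past both thresholds and 1 fell, against 2.17% and 0.516% of all genes, with 3 rises without replicate 3 at 25 °C. The falls were 3 without replicate 4 at 20 °C, 5 with the replicate number as a block, and 7, beside 5 rises, without both libraries that stood apart. The lysozyme *lys-7* was at 26, 23.3, 23.5 and 32 CPM at 20 °C and 83.1, 68.8 and 72.6 CPM at 25 °C, a rise of 1.5 (SE 0.12, FDR 7.77e-05). *thn-2*, a thaumatin family gene, rose by 1.21 (SE 0.0905, FDR 5.29e-05). The median of this list was 0.22, but -0.01 without replicate 1 at 25 °C and -0.12 without both libraries, so that it had no fixed direction. *irg-5*, named for its induction by infection, was 28.7 to 58.5 CPM at 20 °C and 190 to 285 CPM at 25 °C, a log2 fold change of 2.48 with an FDR of 0.00169. The *pals* family, whose genes respond to intracellular pathogens, had 2 rises among 14 tested, of which *pals-6* went from 0.835 ± 0.381 CPM (SD, n = 4) to 3.53 ± 0.585 (n = 3), an edgeR FDR of 0.00276; it was chosen after its values were seen. The neighbouring genes *pud-3* and *pud-4*, on chromosome V between 2324634 and 2327282, were among the larger rises at a high level. *pud-3* was at 83.7, 87.2, 99.5 and 61.9 CPM at 20 °C and 405, 321 and 400 CPM at 25 °C, and *pud-4* rose by 2.53 (FDR 4.61e-05). *ins-7*, an insulin-like peptide that activates the DAF-2 receptor, rose by 1.63 (FDR 0.000299) and was the only one of 16 insulin-like genes tested to pass both thresholds.

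Cytochrome P450 enzymes and UDP-glucuronosyltransferases modify foreign compounds and lipids. Of 44 cytochrome P450 genes, 6 rose past both thresholds and 1 fell, against 2.17% and 0.516% of all genes. *cyp-35A2* was at 19.6 to 23.1 CPM at 20 °C and 45.6 to 75.8 CPM at 25 °C (log2 fold change 1.53, SE 0.151, FDR 0.000299), its relative *cyp-35A3* rose by 2.0 (FDR 0.00416), and *cyp-37B1* by 1.81 (FDR 0.000548). Of 52 UDP-glucuronosyltransferase genes, 3 rose and none fell, against the same shares of all genes, with 5 rises without replicate 3 at 20 °C or with library size alone and 7 with 1 fit over all 15 libraries. *ugt-53* went from 5.67 ± 0.649 CPM (SD, n = 4) to 17.7 ± 1.81 (n = 3), and *ugt-6* from 5.26 ± 0.388 to 13.2 ± 1.05, with edgeR FDRs of 0.0001 and 0.000242. Glutathione transferases had 1 rise past both thresholds among 35 tested, near the 2.17% of all genes, with a median of 0.03, and none without replicate 1 or 2 at 20 °C or without any 1 of the libraries from 25 °C. Among 168 nuclear hormone receptor genes 1 rose, a smaller share than that of all genes.

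**Figure D3:**
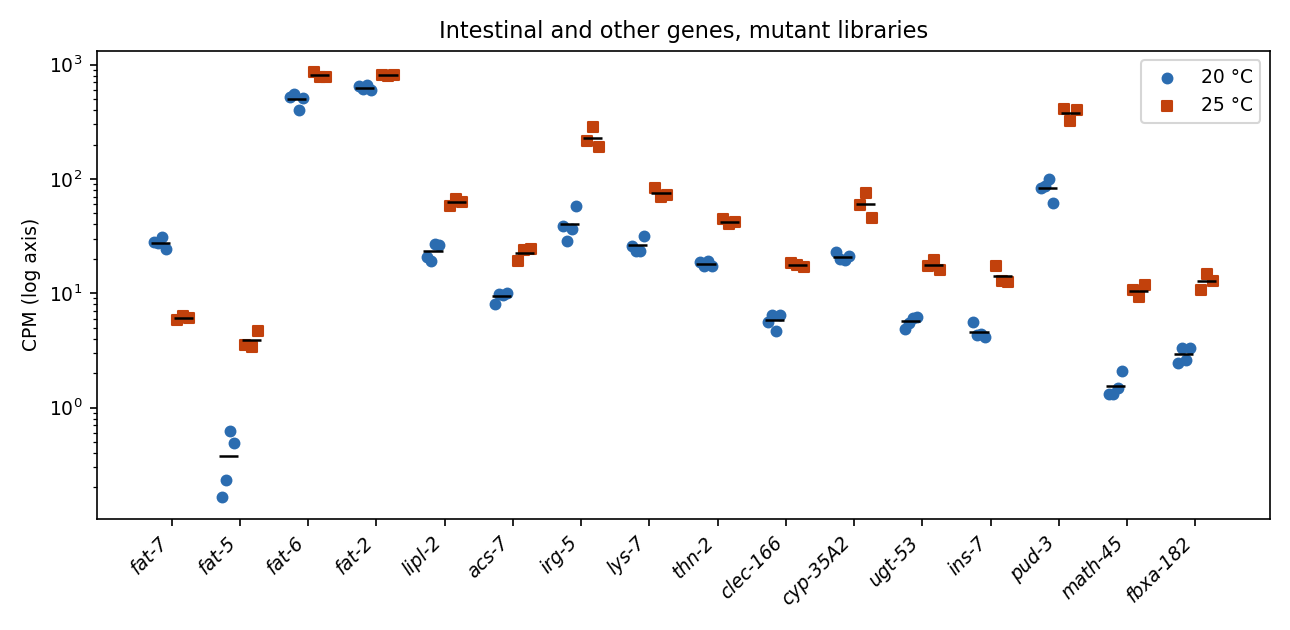
Level in each mutant library, as CPM on a log axis, of fatty acid desaturases, fat breakdown genes, defence and detoxification genes, *ins-7*, *pud-3*, *math-45* and *fbxa-182*. Blue circles are the 4 libraries from 20 °C, orange squares the 3 from 25 °C and black bars the group means. Only *fat-7* is lower at 25 °C. No gene shown has overlapping groups, which was a condition for choosing many of them.

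Relatives of the deleted gene were examined next. Of 92 F-box A genes tested, 5 rose past both thresholds and 1 fell, against 2.17% and 0.516% of all genes, and the median was 0.12. Without replicate 4 at 20 °C, and also with 1 fit over all 15 libraries, 9 rose. The fall was called without replicate 1 at 25 °C and not without any other 1 library. *fbxa-182* (chromosome II) was at 2.45, 3.32, 2.59 and 3.34 CPM at 20 °C and 10.7, 14.8 and 12.7 CPM at 25 °C, a log2 fold change of 2.1 (SE 0.175, FDR 0.0001). *fbxa-189* rose by 1.37 (FDR 0.00204). The germline genes *fbxa-192* and *fbxa-210*, which share the helix-turn-helix domain, did not pass the test. *fbxa-192* was at 21.8 to 24.4 CPM at 20 °C and 23.3 to 25.6 CPM at 25 °C (FDR 0.623), and *fbxa-210* at 28.7 to 34.4 and 29.8 to 38.3 CPM (FDR 0.342). Genes of proteins with a MATH or BTB domain had 7 rises and no fall among 48 tested, against 2.17% and 0.516% of all genes, and 4 rises without replicate 2 at 25 °C. *math-45* was at 1.31, 1.31, 1.49 and 2.09 CPM at 20 °C and 10.6, 9.20 and 11.8 CPM at 25 °C (log2 fold change 2.70, SE 0.202, FDR 5.29e-05), and *math-38*, chosen after its values were seen, rose by 2.65 (FDR 0.000927). Of 23 genes of the SCF core, 1 rose and 1 fell past both thresholds, both of them Skp1-related adaptors. At an FDR of 0.05, 2 were higher and 4 lower, against 10.5% and 11.1% of all genes, and the median was -0.12. *skr-5* rose by 1.78 (FDR 0.00393), with an antisense gene at its locus. *skr-7* fell by 1.32 (FDR 0.0141), with FDRs of 0.0733 and 0.0624 without replicates 2 and 3 at 25 °C. The 4 lower genes at an FDR of 0.05 were 0 and 1 without replicates 2 and 3 at 25 °C, 2 without replicate 1 at 20 °C and 7 without replicate 1 at 25 °C. *metl-13*, also named C01B10.8, and the translation factor gene *eif-2D* had log2 fold changes of -0.05 and -0.08 (FDR 0.823 and 0.698).

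Germ granules are RNA and protein bodies of the germline that hold small RNA factors. Of 44 genes of germ granules and small RNA pathways, 24 fell and none rose at an FDR of 0.05, against 11.1% and 10.5% of all genes, with a median of -0.29 and no member past the fold threshold. The 24 were 17 without replicate 2 at 25 °C, and 18 with library size alone, where the median was -0.21. The members named here were chosen after their values were seen. *glh-2*, a germ granule helicase, was at 190 to 234 CPM at 20 °C and 136 to 149 CPM at 25 °C (log2 fold change -0.63, SE 0.0829, FDR 0.000974). The Argonaute genes *csr-1* and *wago-1* fell by 0.44 and 0.59 (FDR 0.00245 and 0.00195). *pgl-1*, which encodes a structural protein of P granules, fell by 0.52 (FDR 0.00396). Of 32 oocyte and eggshell genes, 13 fell and none rose at an FDR of 0.05, and 5 fell without replicate 2 and 7 without replicate 3 at 25 °C. Of 36 genes of meiotic chromosomes, 6 were lower and none higher at an FDR of 0.05, with a median of -0.16, and 3 were lower without replicate 2 at 25 °C. *rme-2* fell by 0.43 (FDR 0.00676), whereas *oma-1*, an oocyte maturation factor, was at 211 to 259 CPM at 20 °C and 195 to 241 CPM at 25 °C (FDR 0.958).

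The major sperm proteins form the motile cytoskeleton of nematode sperm. None of 28 such genes rose and 4 fell past both thresholds, against 0.516% of all genes that fell, with a median of -0.41, and their summed level was 3858 to 4547 CPM at 20 °C and 2922 to 3587 CPM at 25 °C. *msp-65* was at 123, 124, 120 and 111 CPM at 20 °C and 49.7, 55.3 and 43.5 CPM at 25 °C, well apart (log2 fold change -1.27, SE 0.0894, FDR 4.79e-05). *msp-63* fell by 1.53 (FDR 0.00233). *msp-51* and *msp-55* were near the fold threshold (-1.02 and -1.07), and *msp-51* did not reach it without replicate 1 or 2 at 20 °C or without replicate 2 or 3 at 25 °C (-0.99 to -0.92), nor *msp-55* without replicate 3 at 25 °C (-0.96). With library size alone 2 of the 4 remained past both thresholds, and without replicate 3 at 25 °C also 2, against 7 without both libraries that stood apart. These genes are near-identical in sequence, so single values are uncertain where reads were split, which the summed level avoids. Among 56 other sperm genes tested none passed both thresholds, although 9 fell without both libraries that stood apart. Of the 6 vitellogenins, the yolk proteins made in the adult intestine, *vit-3* fell from 8484 ± 675 CPM (SD, n = 4) to 5990 ± 908 (n = 3), an edgeR FDR of 0.00998, with 0.0517 without replicate 2 at 25 °C. The log2 fold changes of the other 5 were between -0.29 for *vit-4* and 0.11 for *vit-6*, with FDRs of 0.0646 to 0.593. The RNA of the 6 summed to 66270 to 81520 CPM at 20 °C and 63260 to 75040 CPM at 25 °C.

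Of 30 muscle filament genes, 10 rose and 2 fell at an FDR of 0.05, against 10.5% and 11.1% of all genes, with none past the fold threshold and a median of 0.23, and 16 rose with 1 fit over all 15 libraries. *myo-2*, a pharyngeal muscle myosin, was at 162 to 194 CPM at 20 °C and 261 to 291 CPM at 25 °C (log2 fold change 0.63, SE 0.0806, FDR 0.000844). *unc-89*, a giant protein of the thick filament centre, rose by 0.56 (FDR 0.00101), and the actin gene *act-3* by 0.54 (FDR 0.00366). These were chosen after their values were seen. Of the myosin markers of body wall muscle, *myo-3* was higher by 0.31 (FDR 0.011, and 0.0669 without replicate 2 at 25 °C) and *unc-54* by 0.32, which did not pass (FDR 0.0689). All 16 body shape collagens tested had log2 fold changes above 0 (median 0.64), but only 2 passed both thresholds, and none did without replicate 1 or replicate 2 at 20 °C or without replicate 2 at 25 °C, while 5 did without replicate 3 at 25 °C. One of them, *sqt-1*, was at 2.62 to 4.66 CPM at 20 °C and 4.87 to 11.3 CPM at 25 °C (log2 fold change 1.13, FDR 0.0241), and its FDR was up to 0.12 without 1 of those 3 libraries and 0.36 with 1 fit over all 15 libraries. Of 106 *col* collagen genes 1 passed both thresholds and 7 were higher and 7 lower at an FDR of 0.05, counts that ranged from 2 without replicate 2 at 25 °C to 8 without replicate 4 at 20 °C, and from 2 without replicate 3 at 25 °C to 22 without replicate 4 at 20 °C. The adult collagen *col-19* did not differ beyond its spread (-0.29, FDR 0.371). Of the FMRFamide-like neuropeptide genes, which serve as neuronal markers, 28 of 30 had a log2 fold change above 0 (median 0.34) and 7 rose at an FDR of 0.05, but 2 to 4 did without replicate 1, 2 or 3 at 20 °C, and 1 and 2 did without replicates 2 and 3 at 25 °C. Of 20 moulting genes, 15 had a log2 fold change above 0 (median 0.18), and *mlt-8* passed both thresholds (1.16, FDR 0.0213), with an FDR of 0.0541 to 0.0986 without replicate 1 or 2 at either temperature. At an FDR of 0.05 the 2 higher genes were 4 without replicate 4 at 20 °C and 0 without replicate 2 at 25 °C. *noah-1*, a cuticle matrix gene chosen after its values were seen, was higher by 0.87 (FDR 0.0148, and 0.0835 without replicate 2 at 25 °C). The moulting marker *mlt-10* was at 5.84 to 6.21 CPM at 20 °C and 3.53 to 8.97 CPM at 25 °C, which overlap.

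**Figure D4:**
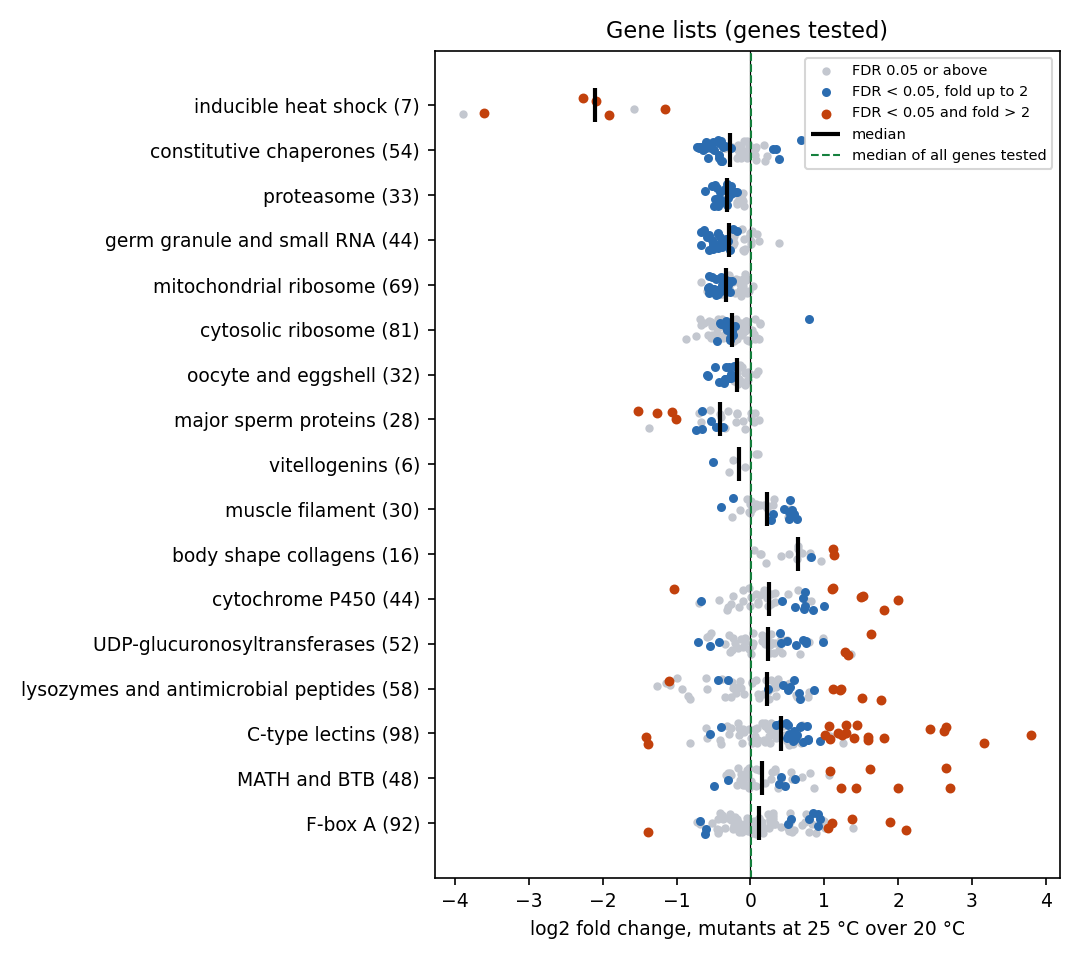
Log2 fold change of mutants at 25 °C over 20 °C (x axis) for every tested gene of 17 gene lists (rows, with the number tested). Grey points did not pass an FDR of 0.05, blue points passed it without a 2-fold change, orange points passed both thresholds, black bars are list medians and the dashed line is the median of all genes (0.01). Inducible heat shock genes lie furthest to the left (median -2.1), and C-type lectins hold the most orange points to the right (17).

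The largest rises and falls include genes outside these groups. *C08E3.13* (WBGene00015605, chromosome II from 1631995 to 1632316) was at 0.655, 0.695, 0.864 and 0.730 CPM in the libraries from 20 °C and at 17.5, 11.7 and 15.7 CPM in those from 25 °C. That is a log2 fold change of 4.33 (SE 0.206, FDR 3.25e-06). *Y38E10A.14*, also on chromosome II, rose from 6.47 ± 0.577 CPM (SD, n = 4) to 55.3 ± 8.81 (n = 3) and had the smallest FDR of all genes (2.61e-06, edgeR). *sdz-6*, from the early embryonic list and chosen after its values were seen, was at 0.0818 to 0.471 CPM at 20 °C, near the floor, and at 2.16 to 3.44 CPM at 25 °C (log2 fold change 3.18, SE 0.399, FDR 0.000788). *hmit-1.1*, a transporter of myo-inositol, rose by 2.43 (FDR 5.76e-05), and *fkb-8*, an FK506-binding peptidyl-prolyl isomerase, by 2.07 (FDR 0.000294). *F15D4.5* and *C27C7.1* rose by 2.59 and 1.60 (FDR 4.61e-05 and 3.25e-06). Among the falls, *K10C2.8* was at 24.6, 29.7, 27.7 and 29.3 CPM at 20 °C and 7.1, 9.35 and 7.90 CPM at 25 °C, a difference of -1.78 (SE 0.131, FDR 5.29e-05). *T22B7.7* fell from 19.5 ± 7.97 CPM (SD, n = 4) to 4.49 ± 0.68 (n = 3), an edgeR FDR of 0.00533. *dhs-26*, a short-chain dehydrogenase gene with an antisense neighbour, fell by 2.76 (FDR 0.00843), and the caveolin gene *cav-1* by 1.45 (FDR 0.00617). *D1086.11* fell by 0.91, below the fold threshold, with 1 of the smallest FDRs (5.29e-05).

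The same comparison in N2 gave the background for the mutants. In N2, 741 of 13174 genes (5.62%) passed both thresholds, 601 higher (4.56%) and 140 lower (1.06%) at 25 °C, and the libraries did not overlap for 42.4% of the genes. Of the 308 genes called in the mutants that were tested in both strains, 185 were also called in N2, which is 60.1% of the mutant calls and 26.6% of the N2 calls, and no gene was called in opposite directions. Of the 308, 297 had the same sign in N2 (96.4%), against 71.4% of all 13047 genes tested in both. Across these genes, which are not independent replicates, the log2 fold changes correlated with Pearson's r of 0.574 and Spearman's rho of 0.533. In N2 *hsp-70* fell by 4.68 and *fat-7* fell by 2.51, and neither was called different between the strains by the interaction test (FDR 0.0701 and 0.488). The inducible heat shock list had a median of -1.97 in N2 and the proteasome list -0.38. Other lists were less alike: the median was -0.41 in mutants and 0.09 in N2 for the major sperm proteins. For the other sperm genes it was -0.0007 in mutants and 0.6 in N2, and for the *abu* and *pqn* genes 0.31 and -0.18. The median was 0.64 and -0.01 for the body shape collagens (16 and 14 tested) and -0.25 and -0.02 for the cytosolic ribosomal proteins. The body shape collagens varied widely between N2 libraries, so their N2 median is imprecise. They summed to 13.3 to 154 CPM in N2 at 20 °C and to 15.7 to 98.7 CPM at 25 °C. In mutants the sums were 50.7 to 100 and 102 to 150 CPM. Differences between the strains in a list median were not tested.

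**Figure D5:**
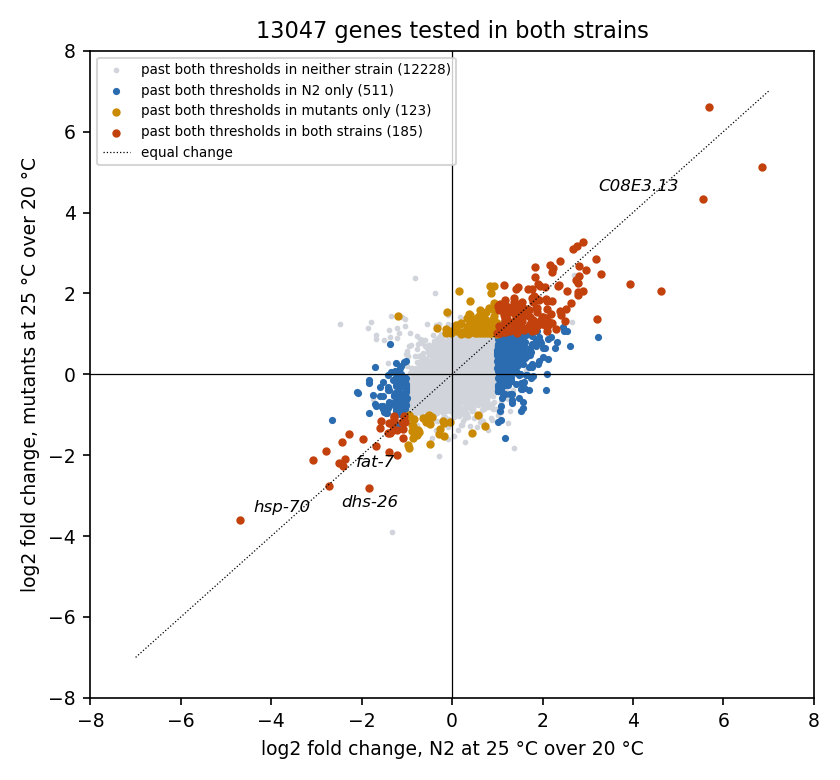
Log2 fold change of 25 °C over 20 °C in N2 (x axis) and in mutants (y axis) for the 13047 genes tested in both strains. Orange points passed both thresholds in both strains (185), yellow points in mutants only (123), blue points in N2 only (511) and grey points in neither; the dotted line marks an equal change, and every orange point lies at the upper right or the lower left of the origin.

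A direct test of the difference between the strains, fitted over all 15 libraries, called 205 of 14000 genes at an FDR of 0.05 (1.46%), with a larger value in mutants for 104 (0.743%) and a smaller one for 101 (0.721%). This count moved with single libraries. It fell to 12 when replicate 3 of the mutants at 25 °C was left out, and reached 1604 when replicate 4 at 20 °C and 1481 when replicate 1 at 25 °C was left out. Of the 308 genes called in the mutants and tested in both strains, 6 were among the 205, against 1.46% of all genes. Of these 6, 4 are described here. The 56 genes called in the mutants but not tested in N2 are outside this count. *cpr-1*, a cysteine protease gene, was at 68.7, 61.6, 71.4 and 71.4 CPM in mutants at 20 °C and 156, 133 and 142 CPM at 25 °C, a rise of 1.07 (FDR 5.29e-05). In N2 it was at 76.7 to 135 CPM at 20 °C and 79.3 to 99.9 CPM at 25 °C, which overlap, and the difference between the strains was 1.16 (interaction FDR 0.0275, and under 0.05 in 16 of 21 alternatives). *msp-63* fell in mutants but was at 4.89 to 6.46 and 4.87 to 5.99 CPM in N2 (difference -1.34, FDR 0.0282). *sysm-1* rose in both strains, by 1.17 in mutants and 2.1 in N2 (difference -0.92, FDR 0.0311), and *Y94H6A.10* fell in both, from 89 ± 7.66 CPM (SD, n = 4) to 28 ± 6.58 (n = 3) in mutants, which was less than in N2 (difference 0.79, edgeR interaction FDR 0.0363). The FDR of the difference stayed under 0.05 in 14, 13 and 10 of the 21 alternatives for *msp-63*, *sysm-1* and *Y94H6A.10*. Of the oocyte genes, *cbd-1* and *oma-2*, which fell by 0.33 and 0.35 in mutants, fell by 1.02 and 0.95 in N2 (differences 0.69 and 0.61, FDR 0.032 and 0.0336). *oma-2* had an FDR of 0.0565 in the mutants without replicate 2 at 25 °C. *act-3*, which rose in mutants, was lower by 0.16 in N2 without passing the test (difference 0.70, FDR 0.0354). The FDR of these differences stayed under 0.05 in 12 of the 21 alternatives for *cbd-1* and in 11 for *oma-2* and *act-3*.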

How the data were processed

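The authors sequenced polyadenylated RNA of whole young adults, trimmed reads with Trimmomatic, estimated transcript levels with Salmon and summed them per gene on WBcel235. Each deposited table lists 21882 genes with their estimated counts, not normalized, and 0 of its columns belong to no sample. The transcriptome release is not given in the sources used here. The authors' tables of DESeq2 results hold their comparisons between strains and were not used. The sample labels gave strain, temperature and replicate.

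The tables of both temperatures were joined by gene identifier and rounded to whole numbers. Temperatures were compared in edgeR (version 4.0.16, R 4.3.3) with TMM factors, filterByExpr (minimum count 10, total 15) and the robust quasi-likelihood F-test, on the mutant libraries alone. A gene was called at a Benjamini-Hochberg FDR under 0.05 over all genes tested, with more than a 2-fold change in either direction, the thresholds of the study, which used DESeq2 in place of edgeR. Standard errors are the log2 fold change divided by the square root of F and are approximate. N2 was fitted likewise, and the interaction in 1 fit over 15 libraries. Depth was 10842744 to 28391866 counts per library, and fold changes of genes near the floor of 3 counts are imprecise. The functions were tested on simulated data first. No 2 libraries agreed within sampling noise.

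Gene symbols (19626 genes) and positions (21714 genes, Ensembl annotation of WBcel235) came from reference tables. Lists were described by counts and medians, with no test of a list. Gene lists and tests were chosen with earlier results of these data known. Genes named are *fbxa-215* and others of the study, the largest and the most significant changes, the largest of each list, and those differing between strains, among called genes with no overlap between temperatures and 50 or more counts on average at the temperature where they were higher. Other genes are said to be chosen later, or are tissue markers. Alternatives were size factors by relative log expression, library size alone, other filters, DESeq2 (version 1.42.0), glmTreat, no fold threshold, unrounded values, 1 fit over 15 libraries, the replicate number as a block and leaving out each library. Protein-coding genes alone, a sum over the *F44E5* pair, the removal of both libraries that stood apart, and thinning of the deepest library were added after seeing the data.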

Additional observations from a re-analysis of the deposited data

Results flagged for a closer look

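Of 96 groups of 4 mutant libraries from 20 °C (single genes and the library totals), 9 held a library with a gap to the nearest of the others that was large against the range of the group. For independent groups chance gives about 1 in 20, but these groups share the same 4 libraries and many genes were selected, so that rate is only a rough guide. The total of replicate 4 at 20 °C was 28391866 counts, above the other 3. Replicate 4 was the lowest for *pgl-1* (445 CPM) and the highest for *oma-1* (259 CPM). Replicate 3 was the highest for *cyp-37B1* (4.87 CPM) and *fbxa-189* (6.44 CPM) and the lowest for *sysm-1* (17.4 CPM). Replicate 1 was the lowest for *acs-7* (8.02 CPM) and replicate 2 the lowest for *act-3* (1561 CPM). The deleted *fbxa-215* was at 0.154 CPM in replicate 2, under the floor of 0.232 CPM of that library, and at 0 in the other 3. With 0 in those 3, any count is flagged.

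Of the genes named, 8 had an FDR under 0.05 in edgeR's interaction test, which 1.46% of all genes tested passed. Some genes were named because they passed that test, so their number is not a result. Under the alternatives the FDR stayed below 0.05 in 10 (*Y94H6A.10*) to 16 (*cpr-1*) of 21. The difference between temperatures, mutants minus N2, was 1.16 for *cpr-1*, 0.79 for *Y94H6A.10*, 0.70 for *act-3* and 0.69 for *cbd-1* on the log2 scale. It was 0.61 for *oma-2*, 0.45 for *dnj-13*, -0.92 for *sysm-1* and -1.34 for *msp-63*.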

How the results depend on the processing

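The 364 genes called in mutants (294 higher, 70 lower) were 210 (172, 38) with at least 10 counts in every library, 31 (24, 7) with glmTreat, 2922 (1419, 1503) without a fold threshold and 838 (479, 359) without both libraries that stood apart. Leaving out 1 library gave 246 to 521 genes, 203 to 395 higher and 42 to 175 lower. The lower genes were 126 without replicate 4 at 20 °C, 175 without replicate 1, 43 without replicate 2 and 42 without replicate 3 at 25 °C. The share of higher genes was 80.8%, 65.5% without replicate 1 at 25 °C and 57.2% without both. In N2, 445 of 741 genes were called with at least 10 counts in every library. The 205 genes of the interaction test were 338 with that filter, 1007 with DESeq2 and 12 to 1604 without 1 library, and the removal of any library except N2 replicate 4 at 25 °C moved this count by more than 1.5 times. Same-numbered mutant libraries did not deviate together (correlations -0.01, -0.07 and -0.10), so the replicate numbers were not taken to pair the samples; with the replicate block, 503 genes were called in mutants (370 higher, 133 lower), 723 in N2 and 20 in the interaction test. The cause of these shifts was not tested. No named gene called in the mutants turned direction under an alternative. The balance of the 1419 higher and 1503 lower genes did with library size alone (1846 and 895). So did the median of the lysozyme and antimicrobial list (-0.01 and -0.12). Medians of other lists changed sign too, such as that of the early embryonic genes (0.44, and -0.16 with every gene of at least 1 count). Genes near 3 counts were too shallow to show a difference, and 25 °C rests on 3 libraries.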
